A study of Mus musculus with 6 samples.

Results

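The 8 genes described here encode the main protein disulfide isomerases of the mouse endoplasmic reticulum (ER), P4hb, Pdia2, Pdia3, Pdia4, Pdia5 and Pdia6, and the ER oxidases that recharge them, Ero1l and Ero1lb. They were chosen by gene symbol and make up 8 of the 38334 gene names, and of the 22923 names with coding rows, in the mm10 gene annotation that the authors deposited for counting their reads. The study sequenced RNA of mTAL cells, an immortalised mouse line microdissected from the TAL, the kidney tubule segment that makes uromodulin, of the immortomouse, in 3 libraries of cells expressing wild type (WT) uromodulin and 3 libraries of cells expressing the C150S isoform, all at passage 3. In both groups the human protein was fused to GFP and came from a lentiviral vector with a spleen focus-forming virus promoter, and the study states that expression of the TAL markers uromodulin and NKCC2 was not seen in the immortalised cells. The file analysed here holds positions of exons and coding sequences and no expression value, so the TAL markers were not checked and WT and C150S cells were not compared. Every value below is a property of the annotation or of the mouse reference sequence. It has no replicates and no error, and no test was made.

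Uromodulin is a secreted protein rich in cysteines, which pair into disulfide bonds in the ER before the protein can leave it, and C150S replaces a cysteine with serine. Protein disulfide isomerases form and reshuffle such bonds through a pair of cysteines set 2 residues apart (C-X-X-C) in a thioredoxin fold, usually preceded by a tryptophan. The ERO1 oxidases take the electrons from the reduced isomerase and hand them to oxygen. P4hb is the founding member, PDI, which also serves as the β subunit of prolyl 4-hydroxylase and of the microsomal triglyceride transfer protein. Pdia2 encodes PDIp, known from the pancreas. The product of Pdia3, ERp57, acts on glycoproteins together with calnexin and calreticulin, while Pdia4, Pdia5 and Pdia6 encode ERp72, PDIr and P5. Ero1l and Ero1lb encode ERO1α and ERO1β.

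The codons around the active-site cysteines were read from GENCODE M21 transcripts, which lie on GRCm38, the assembly also named mm10. The windows shown start with the tryptophan codon, run 5′ to 3′ on the coding strand and have the cysteine codons in capitals, and they were chosen because they cover each pair of middle residues found.
P4hb, motif 1 (chr11:120571702-120571719, minus strand): tggTGTggccacTGCaaa
P4hb, motif 2 (chr11:120562520-120562537, minus strand): tggTGTggtcacTGCaag
Pdia2, motif 2 (chr17:26196576-26196593, minus strand): tggTGCagccacTGCaag
Pdia5, motif 1 (chr16:35438164-35449403, minus strand, with an intron after base 1): tggTGCagcatgTGCaag
Pdia5, motif 2 (chr16:35410981-35422866, minus strand, with an intron after base 1): tggTGTggacatTGTaag
Pdia5, motif 3 (chr16:35404067-35407634, minus strand, with an intron after base 1): tggTGCccacacTGTaag
Pdia6, motif 1 (chr12:17270536-17273960, plus strand, with an intron after base 2): tggTGTggtcacTGCcag

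W-C-X-X-C occurred 14 times in the 6 isomerases. There were 3 copies each in Pdia4 and Pdia5 and 2 copies each in P4hb, Pdia2, Pdia3 and Pdia6. The middle residues were glycine and histidine in every motif except 3. Motif 2 of Pdia2 has serine and histidine, motif 1 of Pdia5 serine and methionine, and motif 3 of Pdia5 proline and histidine. Pdia2 and Pdia5 were thus the isomerases whose motifs differed from each other in these residues. Counting C-X-X-C without the tryptophan raised the number from 14 to 18, and the 4 added were a pair of overlapping motifs in each oxidase, which share the middle cysteine.

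In the oxidases the 3 cysteines lie in coding exon 14, at residues 387, 390 and 393 of Ero1l and at 390, 393 and 396 of Ero1lb. A second arrangement, cysteines 5 positions apart (C-X-X-X-X-C), occurs in coding exon 3 as a pair of overlapping matches that share a cysteine, from residue 94 to 99 and from 99 to 104 of Ero1l and from 90 to 95 and from 95 to 100 of Ero1lb. The windows shown are the run of 3 cysteines and the earlier match in coding exon 3, which hold some of the 15 cysteines of Ero1l and the 14 of Ero1lb, with the codons of the motif cysteines again in capitals.
Ero1l, coding exon 14 (chr14:45287997-45288017, minus strand): TGTgttggcTGCttcaagTGC
Ero1lb, coding exon 14 (chr13:12602356-12602376, plus strand): TGTgttgggTGCgataaaTGC
Ero1l, coding exon 3 (chr14:45305270-45305287, minus strand): TGTggaagaagagacTGT
Ero1lb, coding exon 3 (chr13:12579221-12579238, plus strand): TGCtcaataaaagacTGT

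Proteins that stay in the ER commonly end in lysine, aspartate, glutamate and leucine (KDEL) or a close variant. P4hb and Pdia6 end in KDEL itself. Pdia2 and Pdia4 end in lysine, glutamate, glutamate and leucine, Pdia5 in arginine, glutamate, glutamate and leucine, and Pdia3 in glutamine, glutamate, aspartate and leucine. Neither oxidase has such an end, since Ero1l closes with glutamine, asparagine, valine and histidine and Ero1lb with glutamine, histidine, arginine and arginine. The last 4 codons, in capitals before the stop codon, are shown for both genes that end in KDEL and for an isomerase and an oxidase that do not.
P4hb (chr11:120561183-120561197, minus strand): AAGGATGAACTGtag
Pdia6 (chr12:17283992-17284006, plus strand): AAGGATGAGTTGtga
Pdia3 (chr2:121437685-121437699, plus strand): CAAGAGGACCTCtaa
Ero1l (chr14:45286028-45286042, minus strand): CAGAATGTTCACtga

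Each gene was represented by its transcript with the longest coding sequence, given without the stop codon. P4hb (ENSMUSG00000025130, chr11:120560298-120573253, minus strand) has 1527 coding bases, or 509 codons, in 11 coding exons. Pdia2 (ENSMUSG00000024184, chr17:26195999-26199087, minus strand) has 1581 coding bases in 11 coding exons, and its span of 3089 bases was the shortest of the 8. In Pdia3 (chr2:121413775-121438687, plus strand), 1515 coding bases lie in 13 coding exons. Pdia4 (chr6:47796142-47813512, minus strand) has the longest coding sequence of the 8, at 1923 bases or 641 codons, in the fewest coding exons, 10. Pdia5 (chr16:35397313-35490873, minus strand) has the most coding exons, 17 for 1551 coding bases, and they are spread over the widest span, 93561 bases. Pdia6 (chr12:17266545-17284770, plus strand) has the shortest coding sequence, 1335 bases or 445 codons in 13 coding exons.

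The oxidases have nearly equal coding sequences. Ero1l (chr14:45283092-45318572, minus strand) has 1392 coding bases and Ero1lb (chr13:12565883-12609526, plus strand) has 1401, each in 16 coding exons. The medians of the 8 genes were 1521 coding bases and 13 coding exons, against 1110 bases and 6 coding exons over the 22923 coding gene names. A list of 25 other genes of ER thiol chemistry and of the partners named above had medians of 1251 bases and 11 coding exons. In that list coding length ran from 483 bases in Vkorc1, a subunit of the vitamin K epoxide reductase, to 2844 in Txndc11. Coding exons numbered from 3, in Erp29, Gpx7, Gpx8 and Vkorc1, to 22 in Dnajc10.

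**Figure D1:**
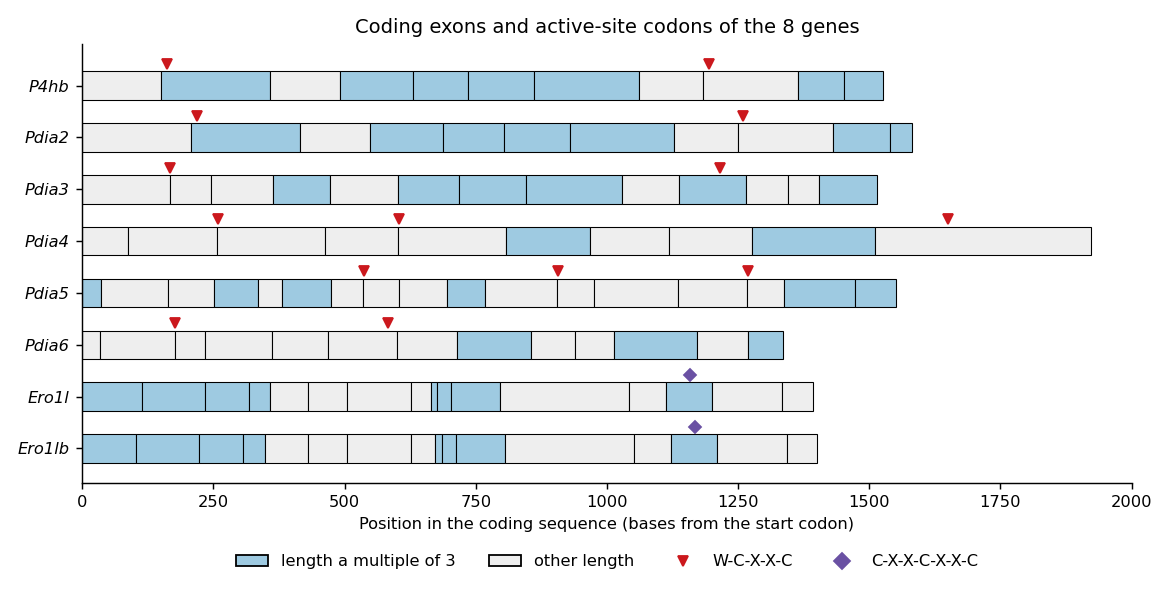
Coding exons of the 8 genes, drawn to scale in bases of coding sequence from the start codon, with blue boxes for exons whose length is a multiple of 3 and grey boxes for other lengths. Red triangles mark the 14 W-C-X-X-C motifs and purple diamonds the C-X-X-C-X-X-C of the oxidases, and 11 of the triangles stand within 11 bases of the start of an exon.

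Of the 14 motifs, 11 lie within 11 bases of the start of a coding exon, against 3 of 13 such motifs in the comparison list, where 6 of 13 lie within 15 bases. The limit of 11 bases was not planned and equals the largest distance among those 11 motifs. The distance from the start of the exon to the first cysteine codon was 11 bases in both motifs of P4hb and in both motifs of Pdia2. It was 1 base in motif 1 of Pdia3, motifs 1 and 2 of Pdia4 and motif 1 of Pdia6, and 2 bases in all 3 motifs of Pdia5. In these 7 of 14 motifs an intron therefore interrupts the tryptophan codon itself, after its base 2 in Pdia3, Pdia4 and Pdia6 and after its base 1 in Pdia5. The 6 isomerases have another 30 tryptophan codons outside the motifs, and 0 of them is interrupted by an intron. The 3 motifs farther from an exon start were motif 2 of Pdia3 at 78 bases, motif 2 of Pdia6 at 114 bases and motif 3 of Pdia4 at 140 bases. In the comparison list, 2 of the 13 motifs had an intron inside the tryptophan codon, both in Txndc5, another ER thioredoxin protein.

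In 2 of the isomerases some exons that carry a motif were equal in length. Coding exons 3 and 5 of Pdia4, which carry its motifs 1 and 2, are both 206 bases long with the motif 1 base from the start, and 122 of their 206 bases (59.2%) are identical position by position. Coding exons 12 and 15 of Pdia5, which carry its motifs 2 and 3, are both 71 bases long and have 37 identical bases (52.1%). The exon with the remaining motif differs in both genes, at 413 bases for motif 3 of Pdia4 and 68 bases for motif 1 of Pdia5. In the other isomerases the exons with motifs 1 and 2 differ in length, at 207 and 182 bases in P4hb and in Pdia2, 79 and 129 in Pdia3, and 58 and 131 in Pdia6.

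P4hb and Pdia2 have the same exon plan. From the start codon on, the coding exons of P4hb hold 151, 207, 134, 138, 105, 126, 201, 121, 182, 87 and 75 bases, and those of Pdia2 hold 208, 207, 134, 138, 117, 126, 198, 121, 182, 108 and 42. Coding exons 2, 3, 4, 6, 8 and 9 are equal in length, which makes 6 of 11. Where lengths differ they differ by a multiple of 3, from 3 bases in coding exon 7 to 57 in coding exon 1, so that the reading phase in column 8 is equal in all 11. Phase here is the number of bases at the start of an exon that complete a codon begun in the exon before. Over the equal exons, 561 of 908 bases (61.8%) are identical, from 49.3% in coding exon 4 to 70.9% in coding exon 9, which carries motif 2.

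The same comparison for the oxidases gave a closer match. Ero1l has coding exons of 114, 120, 84, 39, 74, 74, 121, 38, 12, 27, 93, 247, 70, 87, 134 and 58 bases, and Ero1lb of 102, 120, 84, 42, 83, 74, 121, 47, 12, 27, 93, 247, 70, 87, 134 and 58. Lengths are equal in 12 of 16, and coding exons 9 to 16 form an unbroken run of equal lengths. Coding exons 1, 4, 5 and 8 differ, by 12, 3, 9 and 9 bases, and phases are equal in all 16. Of 1127 bases in the equal exons, 749 (66.5%) are identical. The share runs from 50% in coding exon 9 to 77.0% in coding exon 14, which holds the 3 cysteines. Coding exon 3, which holds the C-X-X-X-X-C matches, has 58.3%.

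**Figure D2:**
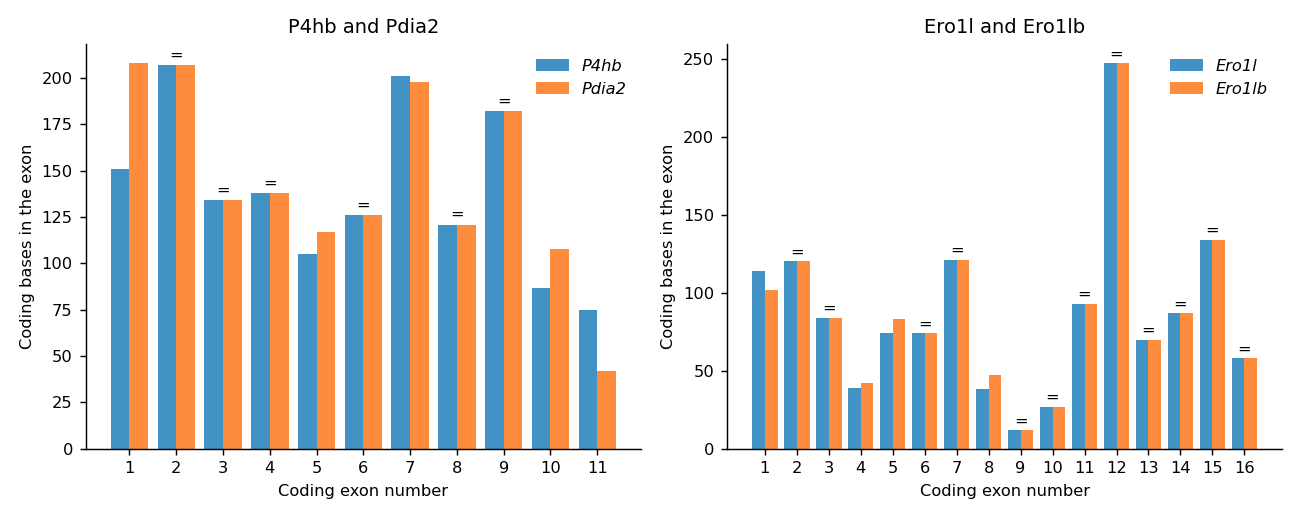
Coding bases in each coding exon of P4hb and Pdia2 (left) and of Ero1l and Ero1lb (right), with an equals sign over exons of the same length. The sign stands over 6 of 11 exons in the isomerase pair and 12 of 16 in the oxidase pair.

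Among these equal exons are the shortest of the 8 genes. Coding exon 9 of the oxidases has 12 bases and coding exon 10 has 27. Despite the fixed length, 6 of the 12 bases and 9 of the 27 differ between the genes, as shown here with differing bases in capitals.
Ero1l, coding exon 9 (chr14:45295972-45295983, minus strand): gAAaaAGtAaAg
Ero1lb, coding exon 9 (chr13:12593508-12593519, plus strand): gGGaaGAtGaTg
Ero1l, coding exon 10 (chr14:45294511-45294537, minus strand): AGAaCAcattTtaCaACtggctagaag
Ero1lb, coding exon 10 (chr13:12595698-12595724, plus strand): GAGaATcattCtaTaCGtggctagaag
Counted from 1 at the 5′ end, with the base of Ero1l first, the differences in coding exon 9 are A2G, A3G, A6G, G7A, A9G and A11T. The last 10 bases of coding exon 10 are identical in both genes.

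The exon plans were also set against all coding genes with as many coding exons, by counting the exons of equal length at the same number. Of 728 other gene names with 11 coding exons, Pdia2 came first for P4hb with 6 equal lengths and Pdilt next with 5, and the gene after these had 1. For Pdia2, P4hb and Pdilt each had 6. Pdilt, a relative of PDI known from the testis, belongs to the comparison list, has the same phases as both genes in all 11 coding exons and holds 0 C-X-X-C motifs. For the oxidases each was the first match of the other among 346 names with 16 coding exons, with 12 equal lengths, and the next name had 1 for Ero1l and 2 for Ero1lb. Pdia3, Pdia4, Pdia5 and Pdia6 had no such partner, with at most 2 equal lengths to any gene with as many coding exons.

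Intron positions were then compared on aligned proteins, translated from the same transcripts, and an intron was taken as shared when it fell at the same aligned residue in the same phase. P4hb and Pdia2 share 9 of 10 introns at 48.5% identity (241 of 497 aligned residues). Ero1l and Ero1lb share 15 of 15 at 62.6% identity (284 of 454). The other 14 pairs of isomerases range from 25.1% to 42.6% identity and share 1 intron at most, and 9 of the 14 pairs share none, or 5 of 14 when positions may lie within 3 aligned residues. The pair with 42.6% identity, Pdia3 and Pdia4, shares a single intron, that inside the tryptophan codon before motif 1 of Pdia3 and motif 2 of Pdia4. Between an isomerase and an oxidase, identity lay between 20.2% and 26.7%, at which positions of an alignment are uncertain. The 8 genes make 28 pairs that share members, so the pairs are not independent points.

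**Figure D3:**
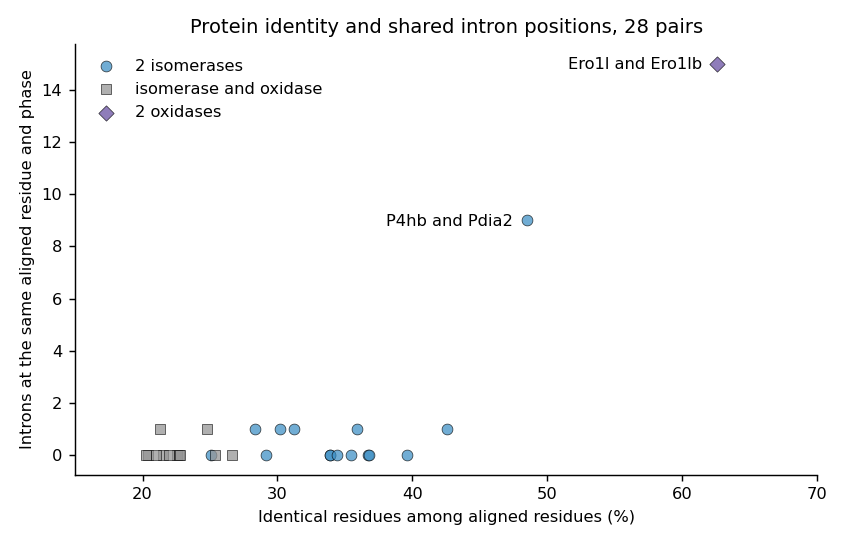
Introns at the same aligned residue and phase, plotted against the percentage of identical residues among aligned residues for the 28 pairs of genes. The pair P4hb and Pdia2 stands at 9 introns and the pair Ero1l and Ero1lb at 15, and every other pair at 0 or 1.

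An internal exon whose length is a multiple of 3 can be left out of the transcript without a shift of the reading frame. This held for 39 of the 91 internal coding exons of the 8 genes (42.9%), against 40.8% over all coding gene names, so the genes lay near the background. They differed among themselves, from 6 of 9 in P4hb and in Pdia2 to 2 of 11 in Pdia6, and the oxidases together had 14 of 28. Of the 99 introns within the coding sequences, 43 lie between codons, 31 after the base 1 of a codon and 25 after base 2, or 43.4%, 31.3% and 25.3%. Over all coding gene names the shares were 45.4%, 32.4% and 22.2%. P4hb and Pdia2 have 0 introns after base 2, whereas in Pdia3 these make up 6 of 12.

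The 8 genes have 20 transcripts, of which 13 are coding. Pdia4, Pdia5, Ero1l and Ero1lb have 1 transcript each, and Pdia6 has 1 coding transcript among 5. That leaves 5 further coding transcripts, in P4hb, Pdia2 and Pdia3, and 4 of the 5 lack at least 1 whole coding exon of the longest one, against 76.4% of such transcripts over all coding gene names. In GENCODE M21 the 8 genes have 32 transcripts, and 8 of 9 further coding transcripts lack a coding exon, against 74.7% over all genes there. The 4 added are 2 each of Ero1l and Ero1lb, counted against the longest coding transcript there. For Ero1lb that is ENSMUST00000221560, so its 2 include ENSMUST00000071973, the transcript that represents Ero1lb here. In P4hb, ENSMUST00000168360 lacks coding exons 2 to 8, which removes 1032 bases in frame and leaves 495. Coding exon 1 is joined to coding exon 9, which begins in the same phase as coding exon 2, and 1 motif (motif 2) and the KDEL codons remain in frame. This transcript runs from atg to a stop codon.

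The others were incomplete or little changed. ENSMUST00000120333 of Pdia2 keeps both motifs and is 9 coding bases shorter, in coding exon 4. The remaining transcripts of Pdia2, ENSMUST00000142410 without coding exons 6 to 11 and ENSMUST00000148134 without coding exons 1 to 6, have start codon rows that read tgc and ggc. Column 8 gives both a phase of 0 at their start, which puts 10 stop codons inside each. GENCODE M21 gives the same transcripts starting phases of 2 and 1, which leaves 0 stop codons inside, and each then keeps 1 motif in frame. ENSMUST00000135079 of Pdia3 has 372 coding bases, lacks 9 coding exons, keeps motif 1 and starts at gcc. Of the 4 transcripts that lack an exon, that of P4hb was therefore the only one that starts at atg. Start codon rows that are not atg are not particular to these genes, since they made up 10.3% of 39700 coding transcripts whose exons equal those of GENCODE M21, and 16.9% of the stop codon rows were not a stop codon.

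In the deposited annotation the 3′ untranslated sequence was longer in both oxidases than in the 6 isomerases. The 3′ untranslated sequence has 2936 bases in Ero1l and 2639 in Ero1lb, or 66.5% and 62.3% of the transcript. In the isomerases it has 885 bases in P4hb, 83 in Pdia2, 988 in Pdia3, 346 in Pdia4, 145 in Pdia5 and 764 in Pdia6. The groups do not overlap in this annotation. Over all coding gene names, 92.4% have a shorter 3′ untranslated sequence than Ero1l and 90.4% a shorter one than Ero1lb. The isomerase with the longest, Pdia3, has 35.7% of its transcript in its 3′ untranslated sequence. In Pdia2 the share is 4.82%. The median of the 8 genes was 824.5 bases, against 535 over all coding gene names and 801 in the comparison list, which runs from 60 bases in Prdx4, an ER peroxiredoxin, to 4340 in Tmx4. The 5′ untranslated sequence was longest in P4hb, with 446 bases, and shortest in Pdia2, with 54, and the oxidases lay between these, with 82 bases in Ero1l and 194 in Ero1lb. For Ero1lb the 3′ length depends on the annotation, since the transcript with the longest coding sequence in GENCODE M21 is another one, ENSMUST00000221560, with 1479 coding bases and 279 bases of 3′ untranslated sequence, which lies within the range of the isomerases. The transcript used here has 2641 there.

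**Figure D4:**
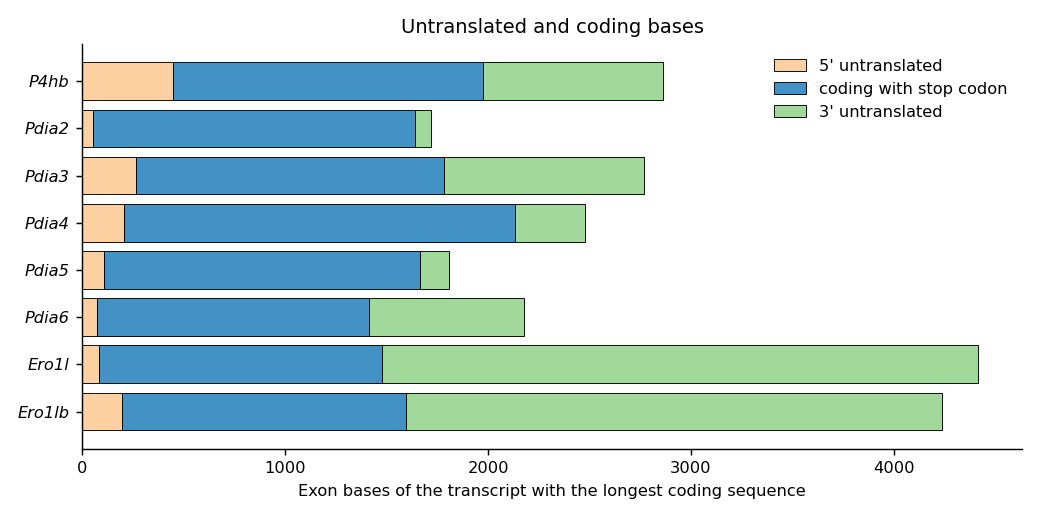
Exon bases of the transcript with the longest coding sequence of each gene, divided into 5′ untranslated (orange), coding with the stop codon (blue) and 3′ untranslated bases (green). The green part has 2639 bases or more in both oxidases and 988 or fewer in the 6 isomerases.

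A read over bases that belong to exons of more than 1 gene name is not assigned in the counting mode that the authors name. For genes on opposite strands this holds only if strand was ignored in the counting, which the study does not state. With strand ignored, 4 of the 8 genes have such bases, Pdia2, Pdia3, Pdia4 and Pdia6, against 20.4% of coding gene names and 5 of 25 genes of the comparison list. On the same strand alone they were 2 of 8, Pdia2 and Pdia4, against 4.38% of coding gene names. P4hb and Ero1l overlap no other gene even by span. Pdia3 shares 18 bases at its 5′ end with Catsper2, a sperm cation channel gene that starts there on the opposite strand. Pdia6 shares 50 bases at its 3′ end with Atp6v1c2, a proton pump subunit gene that ends there on the opposite strand. In Pdia4 the microRNA gene Mir704 (chr6:47803576-47803652, same strand) straddles the start of coding exon 6 and shares 14 coding bases, which leaves 95.2% of the windows of 1 read length along the transcript free. The noncoding genes Gm25548 and Gm25483 lie within introns of Pdia5 and Ero1lb and share 0 exon bases.

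Pdia2 was different in extent. Of its 1721 exon bases, 1591 are also exon bases of Arhgdig, a gene that lies just upstream on the same strand, and 1537 of these are coding in Pdia2. This leaves 7.55% of its exon bases unshared. A share as low as that of Pdia2 or lower was found for 125 of 22923 coding gene names (0.545%). Of its windows of 1 read length, pooled over its 4 transcripts, 1.36% are unshared. Here and in Pdia4 a window stands for a single read, whereas the libraries were sequenced as pairs, so the share of read pairs was not measured. The overlap comes from a single one of the 5 Arhgdig transcripts, ENSMUST00000176961. It has 15 exons, of which 10 touch Pdia2 and 8 have the same ends as exons of the main Pdia2 transcript, while its 675 coding bases end before Pdia2 begins. Without this transcript Pdia2 shares 0 bases, and the unshared share is 100%. GENCODE M21 has the other 4 Arhgdig transcripts and not this one, and there too Pdia2 is unshared at 100%. Whether reads from Pdia2 were lost in this way was not tested, as no counts were analysed.

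**Figure D5:**
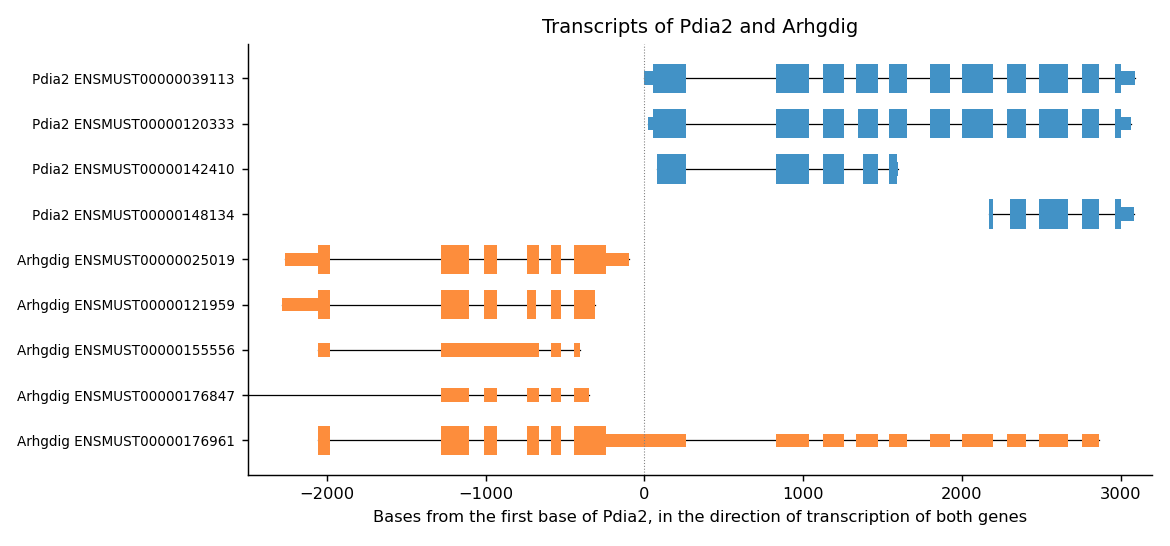
Transcripts of Pdia2 (blue) and Arhgdig (orange) by distance in bases from the first base of Pdia2, with tall boxes for coding and low boxes for other exon bases; the first exon of ENSMUST00000176847 lies beyond the left edge. The lowest transcript, ENSMUST00000176961, has 10 exons over Pdia2, and the other 4 Arhgdig transcripts have 0.

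Reads can also be ambiguous where a sequence occurs elsewhere. Each stretch of 1 read length in the transcripts of the 8 genes was looked for in GENCODE M21 transcripts of other genes. Among the isomerases and Ero1l, 0 stretches were found elsewhere. In Ero1lb, 457 of 4139 stretches (11.04%) also occur in Gm18562 (chr13:13323364-13350427, plus strand), which lies 713837 bases beyond Ero1lb and is listed there as an unprocessed pseudogene with 10 exons. Of these exons, 8 have the lengths of coding exons 7, 8 and 10 to 15 of Ero1lb, at 121, 47, 27, 93, 247, 70, 87 and 134 bases. The 12-base coding exon 9 is not among them, and in the pseudogene transcript the sequence of coding exon 8 runs directly into that of coding exon 10. The shared stretches of 1 read length form 2 runs, a run of 191 bases that begins in coding exon 6 and a run of 466 bases from coding exon 11 to coding exon 15, which takes in the 3 cysteines of coding exon 14. The deposited annotation has 0 rows for this pseudogene, though 1 other gene name in it overlaps the position of the pseudogene. With stretches of 50 bases, 583 of 4190 in Ero1lb (13.9%) were found in Gm18562 and 1 of Pdia3 in Psmd5.

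The ER stress response element is a promoter sequence made of CCAAT, 9 further bases and CCACG, known as a site for NF-Y with ATF6 or XBP1. It was looked for on both strands of RefSeq promoter windows on GRCm38.p6, from 250 bases before to 50 bases after the start of transcription. The full element was present in 2 of the 8 genes, Pdia6 and Ero1lb, against 0.137% of genes (37 of 27025), and in 2 of the 23 genes of the comparison list found in the table, Canx and Calr, which encode calnexin and calreticulin. Both matches are shown 5′ to 3′ on the strand where the element reads forward, with its fixed letters in capitals.
Pdia6 (chr12:17266491-17266509, plus strand): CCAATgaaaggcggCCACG
Ero1lb (chr13:12565682-12565700, minus strand): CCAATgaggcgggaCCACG
In Pdia6 it lies 98 to 80 bases before the RefSeq start, which is 54 to 36 bases before the start of the gene in the deposited annotation. In Ero1lb it lies 201 to 183 bases before both starts, on the strand opposite to the gene. The short part, CCACG alone, was found in 7 of the 8 windows, Pdia3 being the exception, whose window reaches 123 bases before its start in the deposited annotation because the RefSeq start lies 127 bases farther downstream. It was also found in 13 of the 23 genes of the comparison list (56.5%) and in 35.5% of all genes. A match is a description of letters in the window, and its use by a transcription factor was not tested.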

How the data were processed

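RNA of 3 WT and 3 C150S mTAL libraries was sequenced as 101-base pairs. According to the submitters' processing notes and the study's methods, the authors used CASAVA 1.8, STAR 2.3.0 on mm10 with the uromodulin construct, htseq-count over exon rows by gene name, and limma. The deposited file is the annotation used for counting. Its columns are start and end positions and reading phase, taken as given; read counts and depth were not analysed here. Groups came from the labels.

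The members and lists were chosen with earlier results of these data known. Named are the 8 genes, every gene overlapping them or sharing stretches with them, and the extremes of the comparison list. Pdilt, Txndc5 and the genes with a promoter match were named after their values were seen. The search of exon lengths over all genes was also added then, and the limit of 11 bases from an exon start was not planned.

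The longest coding transcript represented each gene. Strand was ignored in overlaps, because the library kit does not keep it and no strand setting is named. Proteins were translated from GENCODE M21 transcripts in place of the planned protein table, and aligned pairwise (BLOSUM62, gap opening 11, extension 1). Alternatives were another choice of transcript, annotation, strand, unit, motif or alignment (mafft 7.526). The interval steps were tested on simulated annotations. Python 3.11.15, numpy 2.4.6, biopython 1.88 and matplotlib 3.10.9 were used.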

Additional observations from a re-analysis of the deposited data

How the results depend on the processing

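No paired analysis was possible because no value per library was analysed. Positions have no sequencing depth, so depth limits none of these values. Over single genes, 48 other settings for coding length, coding exons and 3′ untranslated length left 43 values unchanged. Some of these could not move. In Pdia4, Pdia5, Pdia6, Ero1l and Ero1lb, with 1 coding transcript each, another choice of transcript within the deposited annotation gives the same value. The 5 that moved did so under GENCODE M21. The median 3′ untranslated length of the 8 genes was 555.5 bases there, in place of 824.5. In Ero1lb the length moved because another transcript has the longest coding sequence there. Requiring a coding length that is a multiple of 3, an alternative added after seeing the data, changed the further coding transcripts that lack a coding exon from 4 of 5 to 2 of 3, against 71.6% over all coding gene names under that rule. Under GENCODE M21, also added then, it was 8 of 9. Counting overlaps on the same strand alone lowered the genes with shared bases from 4 to 2 of 8, against 4.38% of coding gene names and 1 of 25 in the comparison list. For Pdia2 the unshared share of 7.55% became 1.36% in windows of 1 read length, and 100% without ENSMUST00000176961 and under GENCODE M21, both added after seeing the data. Allowing intron positions to lie within 3 aligned residues raised the most introns shared by any isomerase pair other than P4hb and Pdia2 from 1 to 3, lowered the pairs with none from 9 to 5 of 14, and raised that of Pdia5 and Ero1lb from 1 to 4 (0 in a multiple alignment), while P4hb and Pdia2 stayed at 9 and the oxidases at 15, as they did in the multiple alignment. Shortening the stretches from 1 read length to 50 bases raised the genes with a match elsewhere from 1 to 2. Searching CCACG alone raised the promoters with a match from 2 to 7.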
